A study of Drosophila melanogaster with 28 samples.

Results

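The RNA that coprecipitated with the poly(A) binding protein PABP was examined in Drosophila embryos aged 4–5 hr, an age at which gastrulation is over and the germ band is extending. Embryos of the w1118 strain, a laboratory stock carrying a mutant white gene, were lysed, and the clarified lysate gave a pair of RNA-seq libraries: 1 of the RNA recovered with a synthetic anti-PABP Fab (the IP) and 1 of the total RNA of the lysate (the input). PABP binding of a gene was taken as the log2 of IP FPKM over input FPKM, centred on the median gene, so that a value of 1 is 2-fold above the median gene; FPKM counts fragments scaled by transcript length and sequencing depth. Genes above 0.5 FPKM in both libraries were kept, which left 8794 of the 16862 fly genes listed (52.2%). A further 715 genes passed in the IP alone, 351 in the input alone, and 3704 were at 0 in both.

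The series holds 28 libraries, of which 24 were used here. They are anti-PABP IPs and inputs of w1118 embryos at 5 ages between 0–1 and 4–5 hr, anti-GFP IPs and inputs of embryos whose ME31B carries eGFP at the same ages, and anti-PABP and ME31B IPs and inputs of S2 cells, a cultured embryonic cell line. ME31B is a DEAD-box helicase that represses maternal mRNAs. Each condition had 1 deposited library although 2 biological replicates were made, so nothing below carries a replicate error or a p-value, and no library made with a control Fab was used here.

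PABP coats the poly(A) tail of most mRNAs and, through eIF4G and the cap-binding protein eIF4E, brings the ends of an mRNA together, a state associated with translation and stability. Several abundant RNAs end without a poly(A) tail. Among them are RNase P RNA, RNase MRP RNA and 7SK, the spliceosomal snRNAs, and the snoRNAs that guide modification of ribosomal RNA. The replication-dependent histone mRNAs, which end in a stem-loop, also lack a tail. At 4–5 hr, maternal mRNAs have been largely replaced by transcripts of the zygotic genome, and ribosomal protein mRNAs, which are short and carry a pyrimidine tract at their start, dominate the polyadenylated pool.

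From the worth of 1 read in FPKM, the IP library held about 16.0 and the input about 12.6 M (mega) reads, within the 11.1 to 16.9 M of the 10 w1118 embryo libraries. C. elegans RNA had been added after the IP, so the ratio of its genes does not depend on PABP; it made up 19.9% of all FPKM in the IP and 35.7% in the input. All 23 markers of the gastrula and germ band embryo, among them engrailed, wingless and twist, were above 0.5 FPKM in the input (2.62 to 82.0 FPKM). They summed to 302 FPKM there and to 820 FPKM in the input at 0–1 hr, mostly from the pole cell markers pgc (492 FPKM) and nos (253 FPKM). Of 5 markers of the syncytial and cellularizing embryo 2 passed 0.5 FPKM in the 4–5 hr input, halo (56.5 FPKM) and slam (3.13 FPKM), and 1 was at 0. Of 17 markers of other material 6 passed that level, led by the muscle genes Mlc2, Mhc and Mp20, and 7 were at 0; these 17 summed to 229 FPKM in the IP and 213 FPKM in the input, against 0.631 FPKM in the input at 0–1 hr, and their part in the results was not tested. The w1118 inputs at 0–1 and 1–2 hr stood apart: fly FPKM summed to 302478 and 125101 in them, against at least 1021830 in the inputs of the 3 later ages, so values at those early ages are given with that limit.

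At 4–5 hr, PABP binding was highest for ribosomal protein mRNAs and for the non-coding host genes of snoRNAs, and lowest for small structured RNAs and the 1 histone mRNA that could be measured. Among the 8794 genes, 1145 (13%) lay at least 2-fold above the median gene and 1222 (13.9%) at least 2-fold below it, 26.9% in all. Among the 8191 protein-coding genes, the shares were 12% above and 13.1% below. The 5th to 95th percentile of fly genes spanned 7.71-fold, against 3.24-fold for 7933 C. elegans genes, whose spread is that of library preparation and sequencing alone. When only genes at or above 10 FPKM in the input were taken, 25.2% of fly genes and 5.22% of C. elegans genes differed at least 2-fold from the median of their own group. Both distributions leaned with level: fly genes at 0.5 to 2 FPKM in the input had a median of 0.59 and those at 50 FPKM or more −0.44, and the corresponding medians of C. elegans genes were 0.28 and −0.17.

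**Figure D1:**
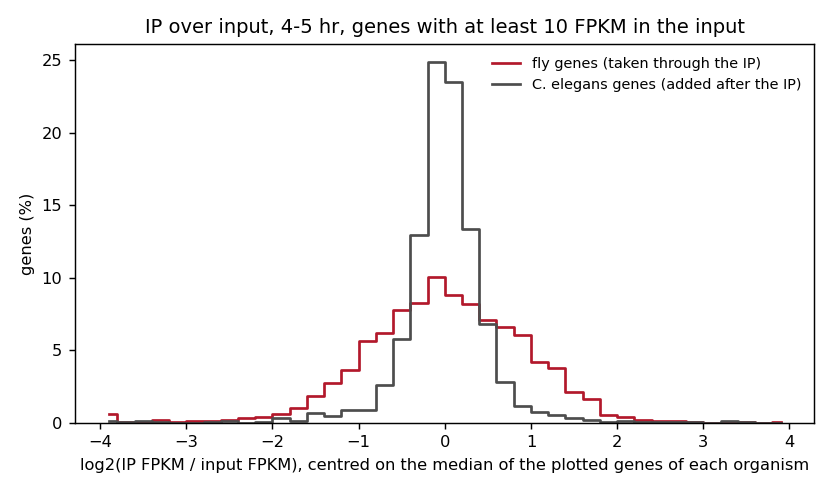
Histogram of log2(IP FPKM / input FPKM) in 4–5 hr w1118 embryos for genes at or above 10 FPKM in the input, each organism centred on the median of its plotted genes (bins of 0.2; the end bins hold all values beyond them; y axis, percent of genes). Fly genes are in red and C. elegans genes, added after the IP, in grey; 25.2% of fly genes and 5.22% of C. elegans genes lie at least 2-fold from that median.

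The lowest values belonged to the small structured RNAs. RNaseMRP:RNA (FBgn0065098, chr3R:23730048-23730429 of the dm6 assembly), the RNA of the enzyme that cleaves ribosomal RNA precursors, had 97.4 FPKM in the IP against 26014 FPKM in the input, a binding of −7.94. RNaseP:RNA (FBgn0046696, chr3R:31217364-31217662), which matures the start of tRNAs, had 142 FPKM in the IP against 28453 FPKM in the input, a binding of −7.53. The 7SK RNA (FBgn0065099, chr3R:7474553-7474996), which holds the elongation factor P-TEFb inactive, had 431 FPKM in the IP against 71434 FPKM in the input, a binding of −7.26. These 3 RNAs made up 0.0467% of the fly FPKM in the IP and 10.8% in the input, where 7SK was the most abundant fly transcript. At 3–4 hr they gave −7.10, −7.12 and −7.37 in the same order.

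Spliceosomal snRNAs followed. Of 27 listed snRNAs 14 passed the filter, with a median of −3.29; 12 lay at least 2-fold below the median gene, against 13.9% of all genes, and 1 lay above. U11, the 5′ splice site RNA of the minor spliceosome, had 364 FPKM in the IP against 11998 FPKM in the input (−4.93), and the U4 copy snRNA:U4:39B had 396 FPKM in the IP against 8749 FPKM in the input (−4.35). U2, the branch point RNA, was recovered better: snRNA:U2:34ABa had 6084 FPKM in the IP against 31940 FPKM in the input (−2.28). The exception was a U5 copy, snRNA:U5:34A, with 144 FPKM in the IP against 13.9 FPKM in the input (3.49). Its binding was −0.97 at 3–4 hr, where the input held 232 FPKM, and the eGFP-ME31B input of 4–5 hr embryos held 67.9 FPKM. Reads of near-identical snRNA copies may have been divided between them, and 11 of the 27 listed copies were at 0 in both libraries.

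The snoRNAs and scaRNAs formed the largest group with low binding. Of 287 listed 142 passed the filter; 97 (68.3%) lay at least 2-fold below the median gene, against 13.9% of all genes, and 7 (4.93%) at least 2-fold above, against 13%, with a median of −1.98 and a range from −7.47 to 2.52. The group took 1.38% of the fly FPKM in the IP and 10.9% in the input. The lowest was snoRNA:Psi28S-2566 (FBgn0086661, chr3L:18896189-18896456), a guide for pseudouridylation of 28S ribosomal RNA, with 31.2 FPKM in the IP against 6002 FPKM in the input. U3, the snoRNA needed for the first cleavages of the ribosomal RNA precursor, followed the group: snoRNA:U3:9B had 185 FPKM in the IP against 11179 FPKM in the input (−5.80).

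Within the group, split by name alone, the 83 guides named for pseudouridylation (snoRNA:Psi) had a median of −2.01 with 58 at least 2-fold below. The 17 named for methylation (snoRNA:Me) had a median of −0.25 with 5 below. The other 42, whose names give neither, had a median of −2.65 with 34 below. The methylation guides are shorter, with a median annotated length of 79.5 nt against 140 nt for the pseudouridylation guides, and most RNAs of both kinds are shorter than a fragment of 200 nt, so their FPKM depend on how length was corrected. Among snoRNAs by annotation, 132 of 140 lie within another gene on the same strand, so reads of an unspliced or retained host transcript may be counted with them; the list's median was −3.55 over genes without such an overlap.

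**Figure D2:**
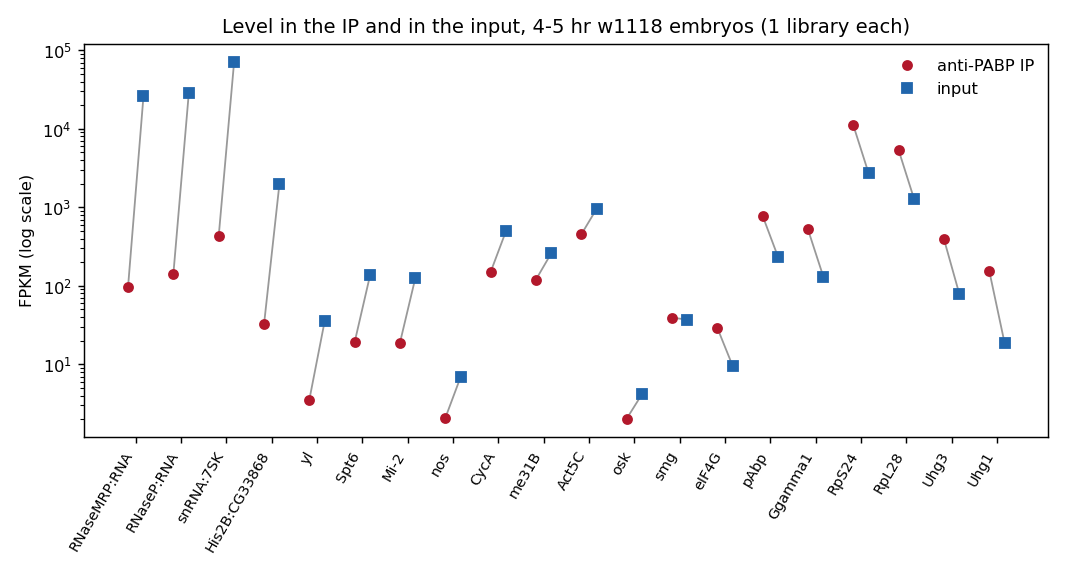
FPKM on a log scale in the anti-PABP IP (red circles) and the input (blue squares) of 4–5 hr w1118 embryos for 20 genes, ordered from low to high binding, with 1 library each and a grey line joining the pair. RNaseMRP:RNA, RNaseP:RNA and 7SK fall by more than 2 orders of magnitude in the IP relative to the input, and RpS24, RpL28, Uhg3 and Uhg1 lie higher in the IP.

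Histone mRNAs could be read from 1 gene. Of the 72 listed copies of the replication-dependent histone genes, 68 were at 0 in both libraries, and 1 copy, His2B:CG33868 (FBgn0053868, chr2L:21537505-21538099), which encodes the core histone H2B, passed the filter. It had 32.4 FPKM in the IP against 1992 FPKM in the input, a binding of −5.83, the lowest of any protein-coding gene with at least 10 FPKM in the input. Its binding was −2.28, −2.93, −4.76 and −5.10 at 0–1, 1–2, 2–3 and 3–4 hr. For this gene the eGFP-ME31B input of 4–5 hr embryos held 618 FPKM, less than the w1118 input. Histone variants with polyadenylated mRNAs were near the median gene: the 6 had a median of −0.40, from −1.06 for BigH1, the embryonic linker histone, to 0.47 for His4r, which had 3516 FPKM in the IP against 2748 FPKM in the input.

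Ribosomal protein mRNAs dominated the IP. The 88 listed cytosolic ribosomal protein genes held 71.4% of the fly FPKM in the IP and 38.0% in the input. Of the 86 that passed the filter, 74 lay at least 2-fold above the median gene, against 13% of all genes, 1 lay below, and the median was 1.31. After the running median of binding among genes of like mean level was subtracted, 8 of the 86 lay at least 2-fold above and the median was 0.42. Of the 50, 100 and 200 genes with the highest mean level, 46, 76 and 80 belong to the class. The subtracted median thus came in part from the class itself, so the adjustment cannot separate class from level. All 10 of the most abundant genes of the IP were of this class, from RpL41 with 122474 FPKM in the IP against 49542 FPKM in the input (1.42) to RpL15 with 20542 FPKM in the IP against 8199 FPKM in the input (1.44). Binding of the large subunit gene RpL28 (FBgn0035422, chr3L:3220911-3222960) was 4.51-fold that of the median gene, with 5384 FPKM in the IP against 1293 FPKM in the input. RpS24 (FBgn0261596, chr2R:22640526-22641419), of the small subunit, reached 2.16, with 11198 FPKM in the IP against 2712 FPKM in the input. RpL23A had the highest value of the class, 2.37, with 854 FPKM in the IP against 179 FPKM in the input, but the eGFP-ME31B input of the same age held 612 FPKM and the gene overlaps 5 others on its strand.

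The 5 lowest ribosomal protein genes were each the weaker copy of a duplicated pair. In 9 pairs whose names differ by a final a or b, the copy with less RNA in the input passed the filter in 7, with a median of 0.21 and a range from −1.32 to 1.34. The other 79 genes ranged from 0.66 to 2.37. Of the 12 genes less than 2-fold above the median gene, 5 were weaker copies and 7 were not. RpS10a had 3.93 FPKM in the IP against 10.6 FPKM in the input (−1.32), whereas its partner RpS10b had 3778 FPKM in the IP against 1415 FPKM in the input (1.53). RpS5b was abundant and still near the median gene, with 1491 FPKM in the IP against 1400 FPKM in the input (0.21), beside RpS5a with 4773 FPKM in the IP against 2477 FPKM in the input (1.06). Near-identical copies share reads, so single members of a pair are uncertain, and this split was made after the values were seen.

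Other mRNAs of the translation machinery went several ways. The mRNAs of the elongation factor eEF1 divided: Ef1alpha48D, the main eEF1A gene, had 14340 FPKM in the IP against 5103 FPKM in the input (1.61), Ef1gamma reached 1.54 and Ef1beta 1.19. The eEF1A gene Ef1alpha100E was at 0.18, and eEF1delta, with 285 FPKM in the IP against 486 FPKM in the input (−0.65), was the lowest of the 9 elongation and termination factors. EF2, the translocase, was lower at 0.49, and eRF1 and eRF3 (Elf), the release factors, were at −0.16 and −0.46. Of 27 initiation factors 4 lay at least 2-fold above the median gene and 4 at least 2-fold below, 14.8% either way and close to the 13% and 13.9% of all genes, with a median of −0.26. eIF-4a, the helicase that opens the mRNA leader, had 5948 FPKM in the IP against 2964 FPKM in the input (1.12). The subunits eIF-2gamma (−1.25) and eIF-2beta (−1.02) of the factor that carries the initiator tRNA, and the exon junction component eIF4AIII (−1.56), were at the low end.

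The mRNAs of PABP itself and of its partner eIF4G were among the better bound. The pAbp gene (FBgn0265297, chr2R:18140078-18147191) had 781 FPKM in the IP against 235 FPKM in the input, a binding of 1.85 with a standard error of 0.02 from counting alone, estimated from the reads behind both values. At 3–4 hr it gave 1.89, whereas the eGFP-ME31B input of 4–5 hr embryos held 854 FPKM. eIF4G (eIF4G1, FBgn0023213, chr4:915297-930715) had 29.3 FPKM in the IP against 9.54 FPKM in the input (1.73), and here too the eGFP-ME31B input was higher, at 50.4 FPKM. eIF-4E, the cap-binding protein, had 82.3 FPKM in the IP against 49.9 FPKM in the input (0.84). Against these, the mRNAs of ME31B and its partners were at or below the median gene: me31B −1.01, tral −0.68, cup −0.43, Edc3 −0.20, Patr-1 −0.40 and yps −0.01.

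Mitochondrial ribosomal proteins differed from the cytosolic ones. Their 72 mRNAs had a median of −0.43, with 3 at least 2-fold above the median gene (4.17%, against 13% of all genes) and 8 below (11.1%, against 13.9%), and they held 0.305% of the fly FPKM in the IP and 0.484% in the input. mRpS35 was lowest with 21.8 FPKM in the IP against 77.2 FPKM in the input (−1.71), and mRpL55 highest with 105 FPKM in the IP against 38.0 FPKM in the input (1.59). The 72 nuclear-encoded respiratory chain mRNAs had a median of 0.00, and both the 6 at least 2-fold above (8.33%) and the 1 below (1.39%) were smaller shares than those of all genes. That 1 was ATPsynbeta, the catalytic subunit of ATP synthase, with 133 FPKM in the IP against 580 FPKM in the input, and ND-MNLL, a small subunit of complex I, was highest at 1.49.

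Several housekeeping assemblies lay together below the median gene. The proteasome had the lowest median of the mRNA lists with more than 1 measured gene, −1.35, with 19 of 31 genes (61.3%) at least 2-fold below, against 13.9% of all genes, and none above. Its parts separated: all 18 genes of the regulatory particle (Rpn and Rpt), which recognizes and unfolds substrates, lay at least 2-fold below, with a median of −1.74, whereas of 13 genes of the core particle (Prosalpha and Prosbeta), which holds the protease sites, 1 did, with a median of −0.51. Rpn7 had 13.6 FPKM in the IP against 83.4 FPKM in the input (−2.50), and Prosalpha5 had 172 FPKM in the IP against 213 FPKM in the input (−0.19). The 2 sets do not overlap but for Prosbeta5 (−1.51). They also differed in median transcript length, 1534 nt for the regulatory and 973 nt for the core particle, and the split was made after the values were seen. At 3–4 hr the medians lay closer together, at −1.33 for the regulatory and −0.96 for the core particle.

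All 12 glycolytic genes were below the median gene (median −1.06), and 7 (58.3%) were at least 2-fold below it, against 13.9% of all genes. They ran from Pfk, the committing kinase, with 1.94 FPKM in the IP against 8.97 FPKM in the input (−2.09), to Pgk at −0.08. All 11 exosome genes were also below it (median −0.95), 5 (45.5%) at least 2-fold, led by the nuclease Dis3 with 13.6 FPKM in the IP against 49.8 FPKM in the input (−1.76). Of 23 aminoacyl-tRNA synthetases 10 (43.5%) lay at least 2-fold below, against the same 13.9%, and none above (median −0.62). Of 20 heat shock and chaperone mRNAs 8 (40%) lay at least 2-fold below and none above (median −0.83), and 5 of these 8 encode subunits of the CCT chaperonin, which folds actin and tubulin. Hsc70-4, the most abundant of them, had 2618 FPKM in the IP against 2265 FPKM in the input (0.32). The clients of CCT were low as well: all 13 actin and tubulin mRNAs were below the median gene (median −0.83), with Act5C, a cytoplasmic actin, at 452 FPKM in the IP against 961 FPKM in the input (−0.97). At 3–4 hr the medians were −0.24 for glycolytic, −0.36 for heat shock and chaperone and −0.44 for actin and tubulin mRNAs. Those of the exosome and the synthetases were −0.99 and −0.62. After the running median of genes of like level was subtracted, 4 glycolytic, 4 exosome and 5 synthetase genes lay at least 2-fold below. So did 4 heat shock and chaperone genes and 6 actin and tubulin genes (4 before), against 1126 of all 8794 genes.

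Secretory pathway mRNAs lay on the other side. Of 14 measured, 12 were above the median gene, 3 of them at least 2-fold (21.4%, against 13% of all genes), with a median of 0.69. The translocon subunits Sec61beta, with 283 FPKM in the IP against 124 FPKM in the input (1.30), and Sec61gamma, with 367 FPKM in the IP against 191 FPKM in the input (1.05), were near the top together with the signal sequence receptor SsRbeta (1.21). The luminal chaperones Gp93 (−0.39) and Hsc70-3 (−0.03) were lowest.

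**Figure D3:**
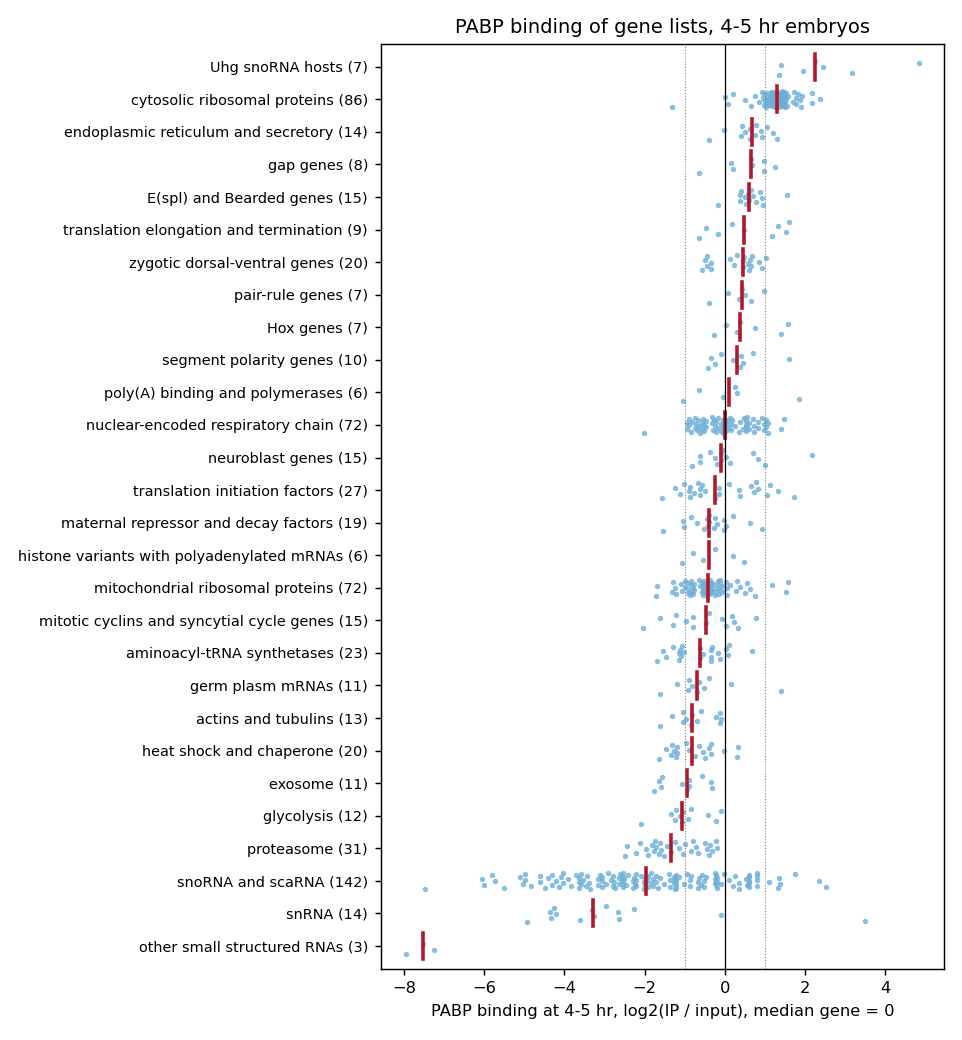
PABP binding at 4–5 hr (log2 of IP over input, median gene at 0) for each measured gene of 28 lists (blue points; number of genes in parentheses) with the list median (red bar); dotted lines mark 2-fold. Medians run from −7.53 for the other small structured RNAs to 2.26 for the Uhg snoRNA hosts, and the cytosolic ribosomal proteins form a tight cluster around 1.31.

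Long non-coding transcripts were bound above the median gene more often than mRNAs. The list held genes with CR names and also roX1 and roX2. Of its 363 genes that passed the filter, 144 lay at least 2-fold above, against 13% of all genes, and 25 below, with a median of 0.80. Binding leaned upwards among weakly expressed genes, and the median of the list was 0.53 after the running median of genes of like level was subtracted. Of the 363, 108 then lay at least 2-fold above and 38 below, against 960 and 1126 of all 8794 genes. The 7 Uhg genes, whose spliced products code for no protein and whose introns carry snoRNAs, all lay at least 2-fold above, from 1.35 for Uhg2 to 4.84 for Uhg7. Uhg1 (FBgn0045800, chr2R:17699097-17703344) had 156 FPKM in the IP against 18.6 FPKM in the input (3.18), and Uhg3 (FBgn0259936, chr2L:20647533-20648848) had 396 FPKM in the IP against 79.2 FPKM in the input (2.44). For Uhg1 the eGFP-ME31B input of 4–5 hr embryos held 44.6 FPKM. The median of the 7 Uhg genes was 2.26 at 4–5 hr and 1.53 at 3–4 hr. A host and its snoRNAs overlap on 1 strand, Uhg1 with 16 genes, so how reads of these loci were divided bears on both. Gar1 (CG4038), an H/ACA snoRNP protein, was also near the top of the protein-coding genes, with 58.3 FPKM in the IP against 12.7 FPKM in the input (2.31). For Gar1 the eGFP-ME31B input of 4–5 hr embryos held 36.7 FPKM.

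Beyond ribosomal proteins and Gar1, the protein-coding genes with the highest binding at 10 FPKM or more in the input included Ggamma1, a G protein subunit, with 525 FPKM in the IP against 131 FPKM in the input (2.12). Fer2LCH, a ferritin light chain, had 49.0 FPKM in the IP against 13.0 FPKM in the input (2.02), and the Eph receptor tyrosine kinase had 38.7 FPKM in the IP against 10.1 FPKM in the input (2.05). The others, CG42587, CG15715 and CG4455, ranged from 2.05 to 2.23. For several of these genes the eGFP-ME31B input of 4–5 hr embryos was higher than the w1118 input. It held 37.1 FPKM for Fer2LCH, 33.5 FPKM for Eph, 121 FPKM against 63.6 FPKM for CG15715 and 37.0 FPKM against 15.7 FPKM for CG4455. For Ggamma1 it was similar, at 139 FPKM, and for CG42587 lower, at 4.46 FPKM against 10.6 FPKM. At the low end after His2B:CG33868 came CG14317, with 0.964 FPKM in the IP against 16.3 FPKM in the input (−3.97), and AOX3, an aldehyde oxidase, with 0.730 FPKM in the IP against 10.2 FPKM in the input (−3.69). The yolk protein receptor gene yl, maternal in origin, had 3.55 FPKM in the IP against 35.9 FPKM in the input (−3.22). Spt6, a histone chaperone of elongating RNA polymerase II, had 19.2 FPKM in the IP against 136 FPKM in the input (−2.71), and Mi-2, a chromatin remodeller, had 18.9 FPKM in the IP against 127 FPKM in the input (−2.63). The remaining ones, Mal-B2, r, ApepP and neb, lay between −2.79 and −2.62; r encodes the enzyme of the first steps of pyrimidine synthesis.

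Zygotic patterning mRNAs stayed close to the median gene and mostly above it. The 8 gap genes had a median of 0.66, the 7 measured pair-rule genes 0.42, the 10 segment polarity genes 0.29, the 7 measured Hox genes 0.38, the 20 measured dorsal-ventral genes 0.46 and the 15 E(spl) and Bearded genes 0.60. In these 67 measurements 6 genes (8.96%) lay at least 2-fold above, fewer than the 13% of all genes, and none below. The 6 were hkb (1.26), ci (1.60), abd-A (1.40), Abd-B (1.57), sna (1.01) and Brd (1.55). Brd, a Notch pathway inhibitor and the best measured of them, had 482 FPKM in the IP against 179 FPKM in the input. ci, the transcription factor of Hedgehog signalling, had 47.3 FPKM in the IP against 16.9 FPKM in the input, and Kr, a gap gene, had 37.4 FPKM in the IP against 25.7 FPKM in the input (0.66). Binding leaned upwards among weakly expressed genes. After the running median of genes of like level was subtracted, the list medians in the order above were 0.45, 0.36, 0.25, 0.14, 0.17 and 0.73. At 3–4 hr, without that adjustment, they were 0.22, 0.18, 0.35, −0.11, 0.12 and 0.84. Neuroblast genes had a median of −0.10 over 15, from ac, a proneural factor, with 33.0 FPKM in the IP against 63.3 FPKM in the input (−0.82), to cas, a temporal factor, with 5.44 FPKM in the IP against 1.30 FPKM in the input (2.18).

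The 19 mRNAs of maternal repressors and decay factors had a median of −0.39, with 15 below the median gene. At least 2-fold below were 3 of them (15.8%, near the 13.9% of all genes): bel (−1.54), brat (−1.06) and me31B (−1.01). smg, the mRNA of the repressor SMAUG, had 39.3 FPKM in the IP against 37.2 FPKM in the input (0.20), and its binding was −2.61, −1.98, −0.67 and −0.66 at 0–1, 1–2, 2–3 and 3–4 hr. me31B lay above the median gene at the 3 earlier ages and below it at the 2 later ones, with 2.13, 2.26, 1.18, −1.62 and −1.01 across the 5 ages; at 4–5 hr it had 120 FPKM in the IP against 262 FPKM in the input. The mitotic cyclins remained below the median gene: CycA (FBgn0000404, chr3L:11826719-11833578) had 150 FPKM in the IP against 501 FPKM in the input (−1.62), CycB 203 FPKM in the IP against 382 FPKM in the input (−0.80) and CycB3 44.0 FPKM in the IP against 82.7 FPKM in the input (−0.79). fzy, the Cdc20 activator of the anaphase-promoting complex, had 45.6 FPKM in the IP against 202 FPKM in the input (−2.03), and stg, the zygotically used Cdc25 phosphatase, was on the other side with 48.1 FPKM in the IP against 30.3 FPKM in the input (0.78).

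Germ plasm mRNAs, whose protected copies sit in the pole cells at this age, had a median of −0.70 over 11. nos (FBgn0002962, chr3R:19157238-19160202), the posterior determinant, had 2.07 FPKM in the IP against 6.95 FPKM in the input (−1.63), and osk, which assembles germ plasm, had 2.02 FPKM in the IP against 4.18 FPKM in the input (−0.93). Of the 11, 2 lay above the median gene, and tud was the highest, with 17.1 FPKM in the IP against 7.02 FPKM in the input (1.40). At such levels few reads lie behind a value, and the counting error was 0.20 for nos and 0.20 for osk. Among other mRNAs followed by the study, grk, which patterns the oocyte, had 4.58 FPKM in the IP against 1.36 FPKM in the input (1.87, counting error 0.31). veli was at −1.14, gnu at −0.48, Rrp45 at −0.90, twin at −0.53, Debcl at 0.07, ana2 at 0.16 and Myt1 at 0.55. orb, with 0.391 FPKM in the IP against 1.58 FPKM in the input, did not pass the filter.

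Transcript features were compared with binding across genes, which are not independent replicates. Among 8191 protein-coding genes, binding and coding length had a Spearman correlation of −0.24, and lengths of the 5′ and 3′ untranslated regions had 0.06 and 0.08. The 1638 genes with the shortest coding sequences (63 to 660 nt) had a median of 0.42 with 23.7% at least 2-fold above the median gene, and the 1638 with the longest had −0.22 with 6.41%. Input level had the larger correlation, −0.37, and it is itself the divisor of the binding value.

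Genes were also sorted by how their total RNA changed between 0–1 and 4–5 hr in the eGFP-ME31B inputs, libraries that do not enter the binding value. In whole embryos, a change in the cells that hold an RNA and a change of RNA per cell cannot be told apart. The 635 measured genes at least 4-fold higher at 4–5 hr had a median of 0.21. Of these, 17.2% lay at least 2-fold above the median gene and 14.0% at least 2-fold below. The 917 at least 4-fold lower at 4–5 hr had a median of −0.07 with 7.52% above and 13.4% below. The 5229 in between had −0.22 with 7.88% above and 17.8% below. Over all genes these shares were 13% and 13.9%, but the classes hold only genes with at least 5 FPKM in the higher of the 2 eGFP-ME31B inputs. The all-gene shares also hold weaker genes: of protein-coding genes in the lowest quintile of w1118 input, 27.0% lay at least 2-fold above and 2.99% below. The interquartile ranges of the 3 classes overlapped (−0.48 to 0.76, −0.66 to 0.46 and −0.79 to 0.40). Their median input differed, at 17.4, 7.34 and 25.6 FPKM in the same order. Adjusted for level, the medians were 0.26, −0.17 and −0.08, so the lower and in-between classes changed order. With classes at 2-fold, unadjusted, the medians were 0.01, −0.13 and −0.22.

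Binding at 4–5 hr resembled that of the preceding ages of the same series and differed from that of ME31B. Each pair of ages has its own libraries. Across genes, the Spearman correlation was 0.83 with PABP binding at 3–4 hr (8214 genes) and 0.78 at 2–3 hr (7313 genes), against 0.44 at 1–2 hr (6265 genes) and 0.45 at 0–1 hr (6465 genes). It was 0.36 with PABP binding in S2 cells (6906 genes) and 0.09 with ME31B binding at 4–5 hr (7807 genes). Between 4–5 and 3–4 hr, 562 genes (6.84%) differed at least 2-fold, and between PABP and ME31B at 4–5 hr 3849 genes (49.3%) did.

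**Figure D4:**
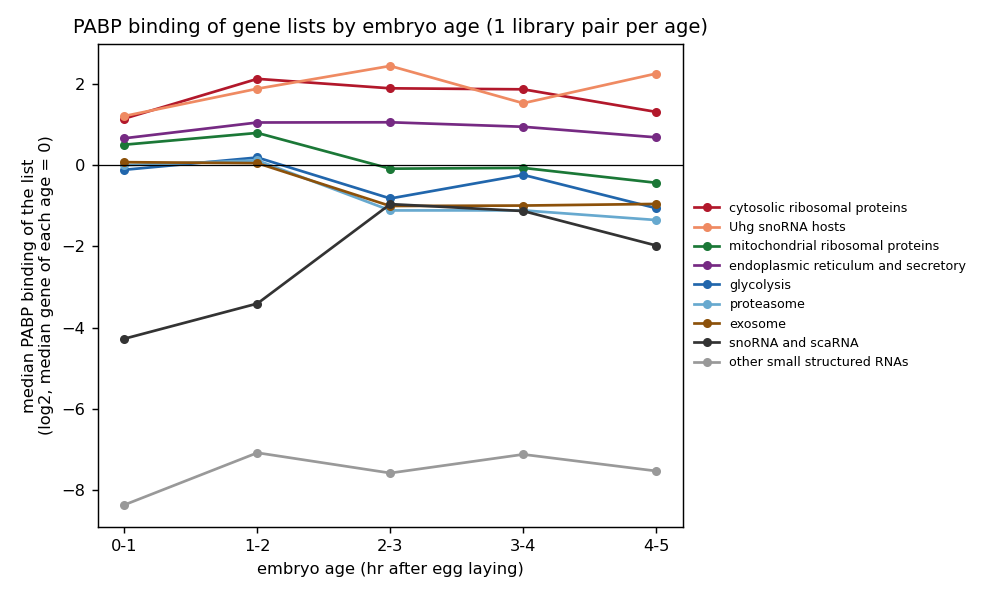
Median PABP binding (log2 of IP over input, median gene of each age at 0) of 9 gene lists in w1118 embryos at 5 ages, 1 library pair per age and no error bars. Cytosolic ribosomal proteins stay between 1.15 and 2.13 at all ages, and proteasome mRNAs are at 0.12 at 1–2 hr and −1.11, −1.11 and −1.35 at the 3 later ages.

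By list, ribosomal proteins kept a positive median at every age (1.15, 2.13, 1.89, 1.87 and 1.31 from 0–1 to 4–5 hr). The proteasome lay at −0.00 and 0.12 at 0–1 and 1–2 hr and at −1.11, −1.11 and −1.35 later, and the exosome lay at 0.07 and 0.05 at the early ages and at −0.99 and −0.95 at 3–4 and 4–5 hr. Mitochondrial ribosomal proteins had 0.51, 0.79, −0.09, −0.07 and −0.43 across the 5 ages. The low fly FPKM of the w1118 inputs fell at the same 2 early ages, and its part in these values was not tested.

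Among the 5 genes highest and the 5 lowest relative to 3–4 hr, of 4791 with at least 10 FPKM in both inputs, 7 were small RNAs. The 5 lowest were snoRNAs, led by snoRNA:Me18S-C1831, a methylation guide, at −1.99 against 3.07 at 3–4 hr. Haspin, a histone H3 kinase, was at 1.59 against −1.33 at 3–4 hr: it had 33.7 FPKM in the IP against 12.1 FPKM in the input at 4–5 hr, and 27.8 FPKM in the IP against 96.3 FPKM in the input at 3–4 hr. CG3107 was at 1.03 against −1.20. In both genes the input differed more between the ages than the IP, and the eGFP-ME31B input at 4–5 hr held 77.6 FPKM for Haspin and 82.3 FPKM for CG3107.

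Against 0–1 hr (3468 genes), me31B and CkIIalpha, the catalytic subunit of casein kinase 2, stood out on the low side. CkIIalpha had 63.3 FPKM in the IP against 67.3 FPKM in the input at 4–5 hr (0.03), and 518 FPKM in the IP against 23.1 FPKM in the input at 0–1 hr (3.17). Rala, a small GTPase, was at −1.09 against 1.61. On the high side MEP-1, a zinc finger partner of Mi-2, was at −0.38 against −4.33, with 29.6 FPKM in the IP against 41.7 FPKM in the input at 4–5 hr and 1.52 FPKM in the IP against 12.3 FPKM in the input at 0–1 hr.

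Against ME31B at the same age (4696 genes), the snoRNA snoRNA:Psi28S-2566 was at −7.47 for PABP and 1.66 for ME31B. The non-coding CR43887 (FBgn0264479, chr3L:11693135-11693661) had 1279 FPKM in the PABP IP against 11149 FPKM in its input (−3.01), and 97624 FPKM in the ME31B IP against 6252 FPKM in its input (3.76). CG14317 was at −3.97 for PABP and 1.80 for ME31B. In the other direction, RpL38, a large subunit protein, had 7429 FPKM in the PABP IP against 2202 FPKM in its input (1.87), and 811 FPKM in the ME31B IP against 2954 FPKM in its input (−2.07). nos was at −1.63 for PABP and 3.57 for ME31B, and gnu, which activates PNG kinase, at −0.48 and 3.13.

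**Figure D5:**
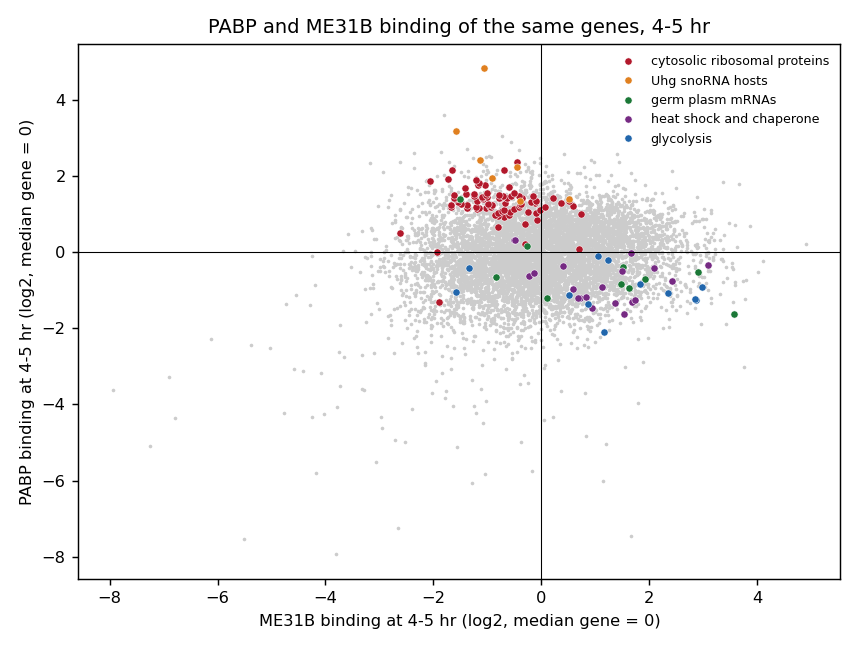
PABP binding (y axis) against ME31B binding (x axis) at 4–5 hr, both as log2 of IP over input with the median gene at 0, for 7807 genes (grey) and 5 lists (coloured). Ribosomal protein genes sit in the upper left, with list medians of 1.31 for PABP and −0.80 for ME31B, and glycolytic genes mostly in the lower right, with −1.06 and 1.20.

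The 2 series came from different strains and were quantified separately. Their inputs at 4–5 hr correlated with a Spearman coefficient of 0.91 over 8244 genes, but 22.7% of genes differed at least 2-fold from the median ratio of w1118 over eGFP-ME31B input. Maternal repressor mRNAs (median −1.10) and germ plasm mRNAs (−1.23) were lower in the w1118 input, and cytosolic ribosomal proteins (0.42) and E(spl) and Bearded genes (0.62) higher. The filter at 0.5 FPKM fell among genes of similar level: CR44978 had 0.607 FPKM in the IP and 0.50006 FPKM in the input just inside it, CG9297 1.37 and 0.501 FPKM, whereas trol had 0.809 and 0.4995 FPKM just outside it and CG33752 0.958 and 0.499 FPKM.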

How the data were processed

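Homogenized, clarified embryo lysates gave total RNA (input) and RNA coprecipitated with an anti-PABP Fab (IP). Per the study's methods, 600 ng of C. elegans RNA was added before the precipitation of the RNA, ribosomal RNA was depleted with Ribo-Zero Gold, and stranded TruSeq libraries were read as 50-nt single reads, trimmed with Trimmomatic 0.36, aligned with STAR 2.5.2a to dm6 joined with ce10 and quantified with Cufflinks 2.2.1 (tools as in the submitters' processing notes). The deposited values are FPKM per gene, made by the authors and not rescaled here. Columns were matched to samples by name, with the Fab's clone name read as anti-PABP.

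Binding was log2(IP FPKM / input FPKM) without a pseudocount for genes above 0.5 FPKM in both libraries, minus the median. With 1 library per condition no test was possible; genes at least 2-fold from the median gene were counted, and C. elegans genes gave the spread that does not come from the IP. Depth was estimated from the FPKM of single reads in genes with 1 transcript of at least 1500 nt, with fragments of 200 nt; 49.5% of those values in the IP and 51.1% in the input fell within 0.1 of a whole read, so depths are approximate. Counting errors use transcripts of at least 400 nt. Gene positions come from Ensembl BDGP6.54 release 115 (dm6 coordinates); 8731 members matched (99.3%), 1514 by an older symbol, and 63 did not.

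Genes, lists and comparisons were chosen with earlier results of these data known. Named genes are the 10 highest and 10 lowest at 10 FPKM or more in the input (also among protein-coding genes), the genes the study followed, up to 3 at either end of each of 31 lists, the 5 that differed most each way from PABP at 3–4 or 0–1 hr and ME31B at 4–5 hr, and those beside the filter; other names and the splits of ribosomal protein pairs and the proteasome were chosen after their values were seen. The png50 embryo table was not used. Values were recomputed under 15 alternatives, and the functions were tested on simulated data. Python 3.11.15, pandas 2.3.3, numpy 2.4.6, scipy 1.17.1 and matplotlib 3.10.9 were used.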

Additional observations from a re-analysis of the deposited data

Results flagged for a closer look

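Each of 5 lists had medians at least 0.5 from the median gene on opposite sides for PABP and for ME31B at 4–5 hr; none of these differences was tested, since each IP and each input is 1 library. For the Uhg snoRNA hosts the median was 2.26 for PABP (7 genes) and −0.91 for ME31B (7 genes), a difference of 3.16. For the cytosolic ribosomal proteins it was 1.31 for PABP (86 genes) and −0.80 for ME31B (87 genes), a difference of 2.11. Germ plasm mRNAs had −0.70 for PABP (11 genes) and 1.50 for ME31B (12 genes), a difference of −2.20. Glycolytic mRNAs had −1.06 for PABP (12 genes) and 1.20 for ME31B (12 genes), a difference of −2.26. Heat shock and chaperone mRNAs had −0.83 for PABP (20 genes) and 1.03 for ME31B (20 genes), a difference of −1.86; Hsp83 belongs both to them and to the germ plasm list.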

How the results depend on the processing

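No paired analysis was possible because each condition has 1 library; for the same reason no replicate could be left out. Each of 15 alternatives was run on those of 39 results that it bears on, between 2 (the other centres, on the counts of genes alone) and 39. Values not given here stayed within 1.5 times for counts, 0.1 for correlations and 0.52 on the log2 scale, the SD of C. elegans genes at 10 FPKM or more, for medians and the percentile span. The subset of longer transcripts, the genes without overlap and the adjustment for level were chosen after seeing the data. The choice of genes set the counts: 713 genes lay at least 2-fold above and 738 at least 2-fold below when genes had to pass 0.5 FPKM in all 10 w1118 embryo libraries, and 674 above and 760 below when they had to pass 5 FPKM in both libraries. The centre set them more: centred on Act5C (−0.97), 4306 genes lay above and 174 below; centred on the median C. elegans gene (−0.50), 2626 lay above and 473 below. With the 4–5 hr input of the eGFP-ME31B embryos as divisor, the 5th to 95th percentile spanned 3.87 on the log2 scale. The Spearman correlation was then 0.28 with PABP at 0–1 hr, 0.21 with ME31B at 4–5 hr and −0.35 with transcript length. List medians were 1.91 for cytosolic ribosomal proteins, 0.40 for histone variants, −1.25 for snoRNAs, −2.37 for snRNAs and −6.57 for other small structured RNAs. They were −0.19 for Hox genes, 1.45 for E(spl) and Bearded genes, −1.46 for maternal repressor and decay factors and −1.80 for germ plasm mRNAs. The histone variants and Hox genes thereby crossed the median gene. With smaller shifts, so did mitochondrial ribosomal proteins (−0.43 to 0.004), neuroblast genes (−0.10 to 0.37) and poly(A) binding and polymerase genes (0.10 to −0.33). With the mean of the 3–4 and 4–5 hr inputs, snRNAs had −2.35 and E(spl) and Bearded genes 1.33. Among genes above 0.5 FPKM in all 10 libraries, snoRNAs had −3.34 and elongation factors 1.03, and without a filter the CR genes had 0.25. Adjusted for transcript length, snoRNAs had −1.05 and snRNAs −2.45; without same-strand overlap, snoRNAs had −3.55. Adjusted for level, other small structured RNAs had −8.24 and cytosolic ribosomal proteins 0.42, with 8 of 86 at least 2-fold above in place of 74. The cause of these changes was not tested. Depth limits the weakly expressed genes: the counting error had a median of 0.11 and a 95th percentile of 0.53 over 8436 genes.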

Other observations

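Among long non-coding RNAs singled out after their values were seen, the dosage compensation RNAs differed: roX1 had 407 FPKM in the IP against 219 FPKM in the input (1.01), and roX2 had 14.1 FPKM in the IP against 39.6 FPKM in the input (−1.38, counting error 0.11). At 3–4 hr they gave 0.36 and −2.27 in the same order. Hsromega, a stress-responsive non-coding gene, had 172 FPKM in the IP against 75.6 FPKM in the input (1.30) and −1.19 for ME31B. The Bithorax complex transcripts bxd and iab-8 were at 1.05 and 0.65.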
